A study of Mus musculus with 12 samples.

Results

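Pou5f1 (also called Oct4), Sox2, Klf4 and Myc, the genes whose products were used to make these cells, were followed through all 12 RNA-seq libraries of the series by their gene symbols. They are 4 of the 20325 genes in the deposited tables, and all 4 had enough reads to be tested among 13400 genes. The cells were mouse pre-iPSCs, a line of partially reprogrammed cells that stalled before the induced pluripotent state and in which the Nanog-GFP reporter stays silent. Each condition had 3 biological replicates, A, B and C, and lasted 48 h. The conditions were DMSO, the solvent control, AA (ascorbic acid at 50 μg/ml), 2i (1 μM of the MEK inhibitor PD-0325901 and 3 μM of the GSK inhibitor CHIR-99021) and AA+2i, both together. All cells were kept on irradiated feeders in embryonic stem cell medium and were treated without the feeder layer. According to the methods of the study, such clonal lines were picked as colonies without GFP from Nanog-GFP fibroblasts infected with pMX retroviruses carrying the coding sequences of the same 4 factors. The same methods also describe fibroblasts for deriving pre-iPSCs as heterozygous for R26 rtTA, with a cassette of the 4 factors on both alleles (OKSM and OSKM). Which account holds for the sequenced line is not stated. The control cells carry transgenes too in either case. A read from a transgene copy and a read from the mouse's own gene could not be told apart in these counts, so each value below is their sum. Fewer expressing cells cannot be told apart from less RNA per cell.

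The 4 factors are the classical set that returns a somatic cell to pluripotency. Oct4 and Sox2 bind DNA side by side and sit at the centre of the pluripotency network, Klf4 is a zinc finger factor that belongs to the naive network and also acts on epithelial genes, and Myc is a growth regulator that drives ribosome production and the cell cycle. Retroviral copies are usually silenced when a cell becomes fully pluripotent, while the cell's own Oct4 and Sox2 genes take over, and Myc is an early target of growth factor signalling in many cell types.

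The coding part, which a retroviral copy shares with the gene, has a different share of the transcript and a different base composition in each member. In the mm9 annotation Pou5f1 lies on chromosome 17 from 35642982 to 35647721 (plus strand), and its coding sequence of 1059 bases is 78.7% of the transcript length used for its TPM. Sox2, a gene without introns, lies on chromosome 3 from 34548927 to 34551383 (plus strand), with 960 coding bases or 39.1% of the length. Klf4 lies on chromosome 4 from 55540013 to 55545347 (minus strand), with 1452 coding bases or 47.7%. Myc lies on chromosome 15 from 61816946 to 61821929 (plus strand), with 1320 coding bases or 55%. The coding GC content was 58.1% for Pou5f1, 66.0% for Sox2, 62.9% for Klf4 and 58.0% for Myc, against a median of 53.0% over the tested genes, and 98.4% of these genes had a lower coding GC content than Sox2. Over the whole transcript the GC content was 57.5%, 52.1%, 54.7% and 53.3%. The following 90-base windows are those of highest GC content within a coding exon of Pou5f1 and of the 2 most GC-rich members, printed 5′ to 3′ on the coding strand with G and C in capitals. They are shown because the members were also compared after correction for coding GC content, as described further on. They come from the reference annotation of mm9, at chr17:35643047-35643136 (exon 1 of Pou5f1), chr3:34549349-34549438 (the single exon of Sox2) and chr4:55543499-55543588 (exon 3 of Klf4), and hold 67.8%, 78.9% and 76.7% G and C.
Pou5f1: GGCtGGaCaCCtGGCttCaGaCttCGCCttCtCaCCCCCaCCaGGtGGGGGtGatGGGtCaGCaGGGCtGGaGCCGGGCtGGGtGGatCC
Sox2: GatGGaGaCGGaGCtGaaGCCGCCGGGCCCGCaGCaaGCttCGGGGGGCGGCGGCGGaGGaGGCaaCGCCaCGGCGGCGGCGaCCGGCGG
Klf4: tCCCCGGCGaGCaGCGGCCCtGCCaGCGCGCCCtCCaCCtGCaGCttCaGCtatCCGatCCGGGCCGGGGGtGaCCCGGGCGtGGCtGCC

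The libraries held between 16173322 and 54392719 expected counts, with a median of 21854761, and any pair of libraries differed in the count of at least 14945 genes. They differed in how expression depended on GC content. At a coding GC content as high as that of Klf4, genes in DMSO A lay 1.29 (log2) under the 12-library average and genes in AA+2i C 1.05 over it. DMSO B stood apart from DMSO A and C in the members. Epithelial genes marked the cells as labelled: Cdh1 (E-cadherin) was at 31.8 to 143 TPM and Epcam at 60.5 to 228 TPM. Nanog was low with DMSO, at 2.93 to 7.14 TPM. Fut4, which makes the SSEA1 antigen in some cells, was at 0 to 0.12 TPM and at 0 in 2 libraries. Of 13 fibroblast and feeder markers, Lum was at 0 in all 12 libraries and Twist2 in 10, while Thy1 was at 0.54 to 16 TPM, Acta2 at 1.6 to 6.23 and Prrx1 at 0.84 to 3.96. The sum of the 13 was 8.68 to 20.6 TPM (DMSO), 12.8 to 24.2 (AA), 10.7 to 13.3 (2i) and 12.9 to 14.2 (AA+2i), the highest of the DMSO values being that of DMSO B. Of 3 pre-iPSC markers tested, 3 rose with AA+2i, and of 10 tested fibroblast markers 1 did (Col3a1, at most 0.64 TPM), where 8.34% of all tested genes were called. Without DMSO B, 2 of 3 pre-iPSC markers and 2 of 9 fibroblast markers rose, where 761 genes were called in all. The part of either group in the values of the members was not tested.

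On TPM, which is per transcript length, Pou5f1 was the highest and Sox2 the lowest of the 4 in every library. Together the members held 0.2097% (AA A) to 1.117% (DMSO B) of all TPM. Myc was above Klf4 in 8 of the 12 libraries, and Klf4 was above Myc in all 3 AA+2i libraries.

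Pou5f1 was among the most abundant transcripts of these cells, ranking between 2 and 61 in the libraries. The DMSO libraries A, B and C measured 1865, 9673 and 3795 TPM, the AA libraries 1902, 4447 and 4407, the 2i libraries 2946, 3669 and 3222, and the AA+2i libraries 3311, 2985 and 3026. Its mean was lower along this order, from 5111 ± 4067 (SD, n = 3) in DMSO to 3586 ± 1458 (AA), 3279 ± 364.9 (2i) and 3107 ± 177.6 (AA+2i), but the groups overlapped and neighbours in the order lay within their spread. The coefficient of variation was 79.6% in DMSO, or 48.2% over DMSO A and C alone, and 40.7%, 11.1% and 5.71% under AA, 2i and AA+2i. Without DMSO B, the DMSO mean was 2830 TPM, below those of all treatments.

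Sox2, the partner of Oct4 on DNA, was the least abundant member, with ranks from 1152 to 8550. In the order A, B and C, it measured 12.6, 98.1 and 15.0 TPM in the DMSO libraries, 21.6, 28.1 and 56.2 in AA, 8.47, 26.5 and 88.0 in 2i and 56.3, 17.5 and 123 in AA+2i. All groups overlapped, and the highest library of each group was B with DMSO and C with every treatment. The means were 41.9 ± 48.7, 35.3 ± 18.4, 41 ± 41.7 and 65.8 ± 53.6 TPM in DMSO, AA, 2i and AA+2i (SD, n = 3), so the order of the conditions lay within the spread. The DMSO mean without library B was 13.8 TPM. The depth behind these values ran from 216 to 5348 expected counts per library.

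Klf4, a factor of the naive network, measured 34.1, 529.6 and 142 TPM in DMSO libraries A, B and C, 35.2, 251 and 280 in AA, 84.5, 163 and 311 in 2i and 237, 156 and 457 in AA+2i. The lowest AA+2i library was above 2 of the 3 DMSO libraries, and DMSO B was above all others on TPM. On log2 CPM, which scales for library composition, AA+2i C (9.75) was above DMSO B (9.41). The means were 235 ± 261 TPM (DMSO), 189 ± 134 (AA), 186 ± 115 (2i) and 283 ± 155 (AA+2i) (SD, n = 3), and the DMSO mean without library B was 88.0 TPM.

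Myc, the growth regulator, measured 225, 864 and 255 TPM in DMSO libraries A, B and C, 138, 286 and 294 in AA, 153, 209 and 238 in 2i and 202, 139.9 and 213 in AA+2i. Its means were 448 ± 361, 239 ± 88.2, 199.8 ± 43.1 and 185 ± 39.4 TPM in that order (SD, n = 3), and 240 TPM over DMSO A and C alone. All 3 AA+2i libraries lay below all 3 DMSO libraries on TPM, the single case without overlap among the 4 members in any comparison, and 32.1% of all tested genes did not overlap in that comparison. On log2 CPM, which scales for library composition, Myc in AA+2i C (8.30) was above DMSO A (8.08) and C (8.28), so the groups overlapped.

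**Figure D1:**
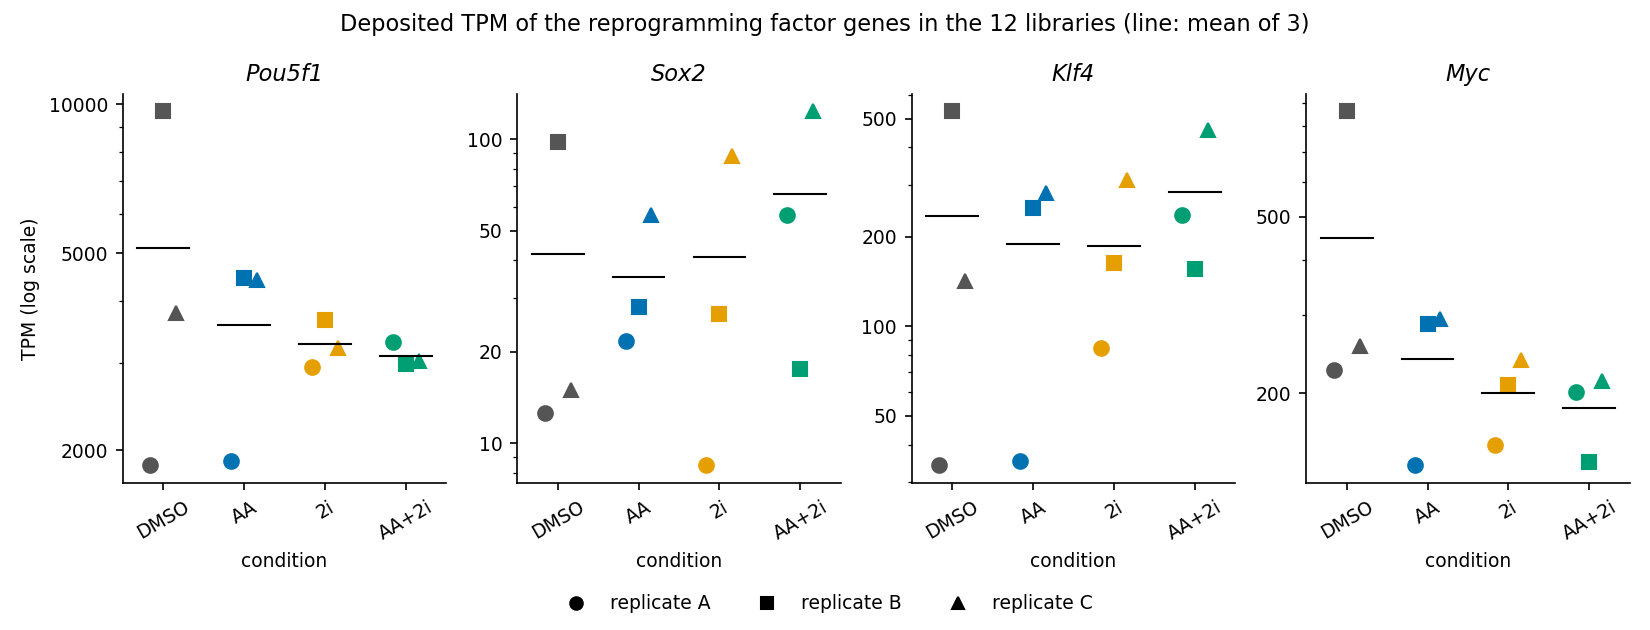
TPM of each member (vertical axis, log scale) in the 12 libraries by condition, with 1 point per library, shaped by replicate letter, and a line at the mean of 3. DMSO B is the highest of the 12 points for Pou5f1 (9673), Klf4 (529.6) and Myc (864), and the points of each condition are widely spread for Sox2 and Klf4.

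Whether the treatments changed the members was asked first with edgeR's quasi-likelihood test on the deposited expected counts. At an adjusted p under 0.05, the number of members called was 0 of 4 for AA against DMSO, where 1.34% of all tested genes were called. It was also 0 for 2i against DMSO (4.42% of all genes), AA+2i against DMSO (8.34%), AA+2i against AA (6.1%), AA+2i against 2i (0.91%) and the interaction of AA and 2i (0.0149%). The comparisons with DMSO share the DMSO libraries. Among all 13400 tested genes, 1263 (AA), 2151 (2i) and 3325 (AA+2i) had an unadjusted p under 0.05 against DMSO in edgeR. In edgeR 0 members had an unadjusted p under 0.05 in any comparison, in DESeq2 1 did (Myc in AA+2i against DMSO), and in both DESeq2 and limma 0 were called. The nearest in edgeR was Myc in AA+2i against DMSO, with a log2 fold change of −0.98 ± 0.47 (SE), a 95% interval from −2.02 to 0.07 and an adjusted p of 0.225. For 2i it was at −0.89 ± 0.47 (edgeR, adjusted p 0.401) and for AA at −0.79 ± 0.47 (adjusted p 0.761).

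Pou5f1 lay between −0.44 and −0.38 in the 3 comparisons with DMSO, with 95% intervals from −1.44 to 0.65 (AA), −1.42 to 0.67 (2i) and −1.48 to 0.61 (AA+2i). With AA+2i Sox2 was at 1.05 (95% interval from −1.15 to 3.24) and Klf4 at 0.64 (from −1.42 to 2.69). Both intervals hold a rise as well as a fall, so a difference was not detectable at this spread between replicates. Between AA+2i and AA the members lay between −0.19 (Myc) and 1.14 (Sox2), and between AA+2i and 2i from −0.09 (Myc) to 0.73 (Sox2). The interaction of AA and 2i was between 0.34 (Pou5f1) and 0.82 (Sox2).

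On log2 CPM DMSO B was above the mean of DMSO A and C by 1.60 in Pou5f1, 2.57 in Sox2, 2.67 in Klf4 and 1.59 in Myc, and 6.16%, 1.01%, 0.791% and 6.31% of all tested genes were at least as far up. Taken letter by letter, AA+2i less DMSO was 2.85 in A, −1.47 in B and 1.97 in C for Klf4, and 2.20, −2.19 and 3.32 for Sox2. For both genes AA+2i was above DMSO in A and C and below it in B. Without DMSO B, edgeR gave 2.45 for Sox2 (adjusted p 0.184) and 1.86 for Klf4 (adjusted p 0.226) with AA+2i, while Pou5f1 was at 0.26 and Myc at −0.24. Over all alternatives the adjusted p with AA+2i ranged from 0.144 to 0.881 for Sox2 and from 0.196 to 0.93 for Klf4.

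The members differed in how closely they followed the GC dependence of the libraries. For each library a smooth curve gives how far genes of a given coding GC content lie above or below the mean of the 12 libraries. Klf4 tracked the value of that curve at its own coding GC content with Pearson's r of 0.972 and Spearman's rho of 0.951 over the 12 libraries (permutation p = 1e-05 for both, the smallest that 100000 permutations can give, and 4e-05 after adjustment over the 4 members). Without the 2 libraries farthest from the median, DMSO A and AA A, r was 0.917, within conditions 0.981 and within replicate letters 0.964. Sox2 gave r of 0.852 and rho of 0.909 (permutation p = 0.0004 and 9e-05, adjusted 0.0008 and 0.00018), with 0.947 without the farthest libraries.

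Pou5f1 gave r of 0.759 (permutation p = 0.00469, adjusted 0.00625) and rho of 0.566 (p = 0.0598), but r was 0.278 without DMSO A and AA A, so the relation over all libraries did not hold without them. It was 0.904 without DMSO B, 0.909 within conditions and 0.614 within letters. Myc gave 0.459 (permutation p = 0.144) over all libraries and 0.864 within conditions. The median r over all tested genes was 0.697, and 92.8% of them had a lower r than Klf4, 65.6% a lower r than Sox2, 54.9% a lower r than Pou5f1 and 35.8% a lower r than Myc. Sox2 and Klf4 moved by 1.69 and 1.79 for each unit of the curve, more than the average gene of their GC content. Pou5f1 and Myc moved by 0.855 and 0.578, less than the full unit that the correction takes off. The points share libraries, depth and composition, and the part of GC dependence in the level of a member was examined only by the correction that follows.

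**Figure D2:**
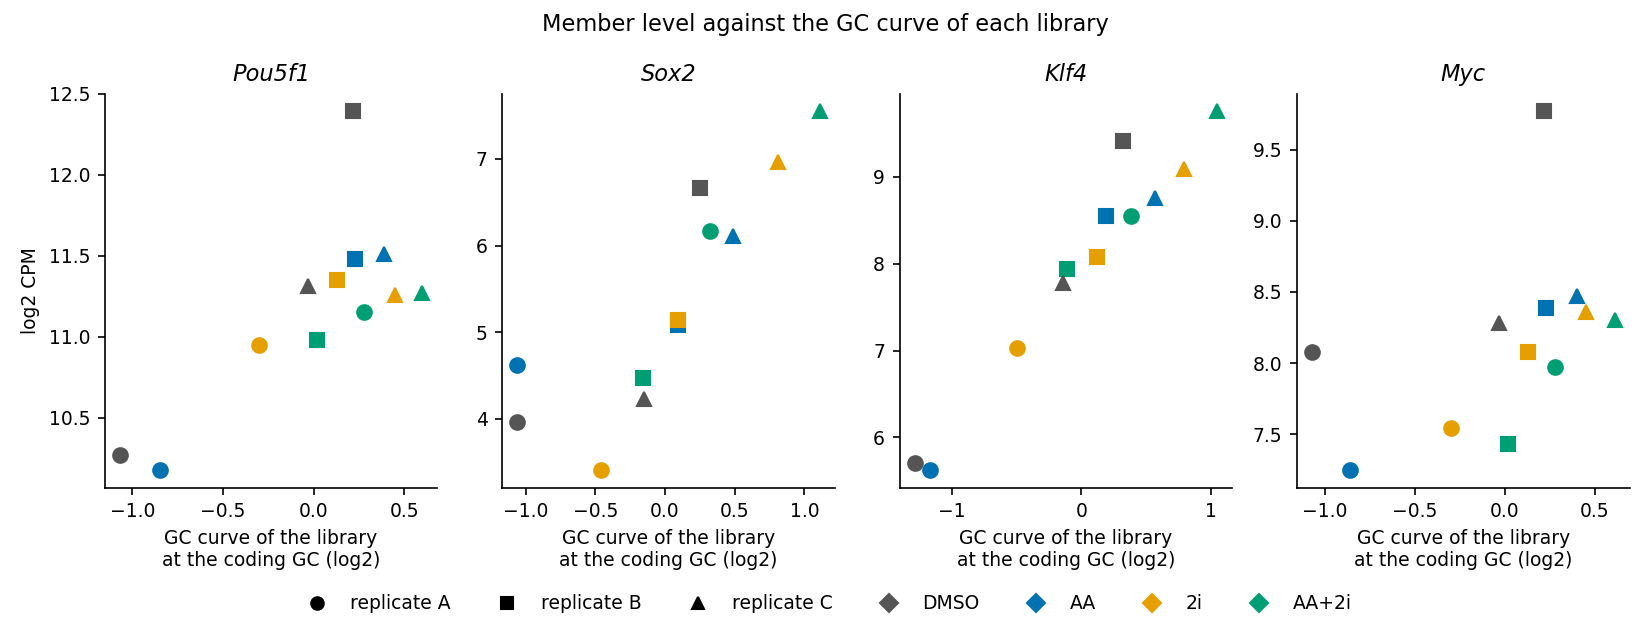
log2 CPM of each member (vertical axis) against the GC curve of the library at the coding GC content of that member (horizontal axis, log2), 1 point per library, coloured by condition and shaped by replicate letter. Klf4 lies close to a line (r = 0.972), whereas in Pou5f1 and Myc the point of DMSO B stands above the rest.

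When the curve was subtracted, the scatter of the members within conditions shrank. The within-condition SD on the log2 scale went from 0.67 to 0.29 in Pou5f1, from 1.44 to 0.92 in Sox2, from 1.45 to 0.72 in Klf4 and from 0.65 to 0.33 in Myc, while the median over all tested genes went from 0.41 to 0.30. With the GC content of the whole transcript in place of the coding sequence, the median gene narrowed further, to 0.26, and the members less, to 0.30, 1.40, 1.12 and 0.51. The correction by coding GC was chosen after the data had been seen.

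Myc after correction by coding GC was lower in every treated library than in every DMSO library. The corrected log2 CPM was 9.16, 9.54 and 8.31 in DMSO libraries A, B and C, 8.10, 8.16 and 8.07 in AA, 7.84, 7.95 and 7.91 in 2i and 7.69, 7.41 and 7.69 in AA+2i. AA, 2i and AA+2i did not overlap each other either and descended in this order. Their SDs were 0.04, 0.06 and 0.16 against 0.63 in DMSO, whose libraries A and B lay well above C. Before correction the means of AA, 2i and AA+2i were 8.03, 7.99 and 7.90, so most of this descent came from the subtraction. The subtracted curve was −1.07, 0.22 and −0.03 in DMSO A, B and C and 0.28, 0.02 and 0.61 in AA+2i. In letter C the corrected differences from DMSO were −0.24 (AA), −0.40 (2i) and −0.61 (AA+2i). On this scale 14.8%, 26.1% and 33.9% of all tested genes did not overlap between DMSO and AA, 2i or AA+2i, and 32.5% and 24.3% between AA+2i and AA or 2i, and 36.0% between AA and 2i.

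In edgeR with this correction Myc fell by 1.19 ± 0.24 (SE) with 2i (adjusted p 0.0107) and by 1.49 ± 0.24 with AA+2i (adjusted p 0.00222), and both calls held without DMSO B, at −0.90 (adjusted p 0.0278) and −1.19 (adjusted p 0.00506). The DMSO mean there rested on DMSO A and C, of which the curve raised A from 8.08 to 9.16 (log2 CPM). With AA Myc was at −0.98 ± 0.24 and missed the threshold (adjusted p 0.056). With transcript GC, where 10.7% of all tested genes were called lower, AA+2i was called at −1.20 (adjusted p 0.037), and not without DMSO B, at −0.58 (adjusted p 0.14). With 2i and transcript GC it was at −1.04 (adjusted p 0.089). Over all alternatives its adjusted p in edgeR, limma or DESeq2 ranged from 0.00168 to 0.966 with AA+2i, from 0.00774 to 0.86 with 2i and from 0.0368 to 0.999 with AA. AA+2i against AA was at −0.51 (adjusted p 0.217) and against 2i at −0.30 (adjusted p 0.719), and neither was called. AA and 2i were not tested against each other.

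Pou5f1 after correction by coding GC was at 11.34, 12.17 and 11.34 (log2 CPM) in DMSO libraries A, B and C, 11.03, 11.26 and 11.12 in AA, 11.25, 11.23 and 10.81 in 2i and 10.87, 10.97 and 10.67 in AA+2i. DMSO overlapped no treatment, although DMSO A and C were close to AA B and 2i A, and AA+2i did not overlap AA. As given for Myc, 14.8%, 26.1%, 33.9% and 32.5% of all tested genes did not overlap in these comparisons. Before correction the groups overlapped, and DMSO A (10.27) lay below every 2i and AA+2i library. The subtraction raised DMSO A to 11.34 and lowered AA+2i C from 11.27 to 10.67, so the separation from DMSO appeared only with it. With AA+2i edgeR gave a fall by 0.83 ± 0.23 (adjusted p 0.0311), and by 0.97 ± 0.24 with transcript GC (adjusted p 0.0138). Without DMSO B these became −0.51 (adjusted p 0.0628) and −0.72 (adjusted p 0.038), so the call with coding GC rested on DMSO B. With neither correction nor DMSO B, Pou5f1 with AA+2i was at 0.26 (edgeR, adjusted p 0.645). Over all alternatives the adjusted p with AA+2i ranged from 0.000995 to 0.687. With AA and 2i alone Pou5f1 was at −0.54 (adjusted p 0.316) and −0.57 (adjusted p 0.164) with coding GC.

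Of the 4 members, 1 was thus called lower with 2i and 2 with AA+2i after correction by coding GC, where 5.91% and 8.81% of all tested genes were called lower. With AA 0 of 4 were called (1.1% of all genes lower), and so were 0 of AA+2i against AA (6.67%) and 0 of AA+2i against 2i (0.724%). The unadjusted p was under 0.05 for 2 members with AA. The number of all genes at that level was counted only without correction, where it was 1263 of 13400 with AA.

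Sox2 and Klf4 were not called under either correction. With coding GC, Sox2 was at −0.09 ± 0.63 (AA), −0.23 ± 0.63 (2i) and 0.27 ± 0.63 (AA+2i), with adjusted p from 0.781 to 0.978. Klf4 was at −0.33 ± 0.50, −0.29 ± 0.50 and 0.08 ± 0.50, with adjusted p from 0.744 to 0.927. The corrected Klf4 levels were 7.0, 9.09 and 7.92 (log2 CPM) in DMSO and 8.17, 8.05 and 8.70 in AA+2i, so the AA+2i libraries lay inside the DMSO range. AA A, at 6.8, lay below it. Without DMSO B and with coding GC, AA+2i gave 0.79 ± 0.45 for Klf4 (adjusted p 0.244) and 1.07 ± 0.66 for Sox2 (adjusted p 0.269).

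**Figure D3:**
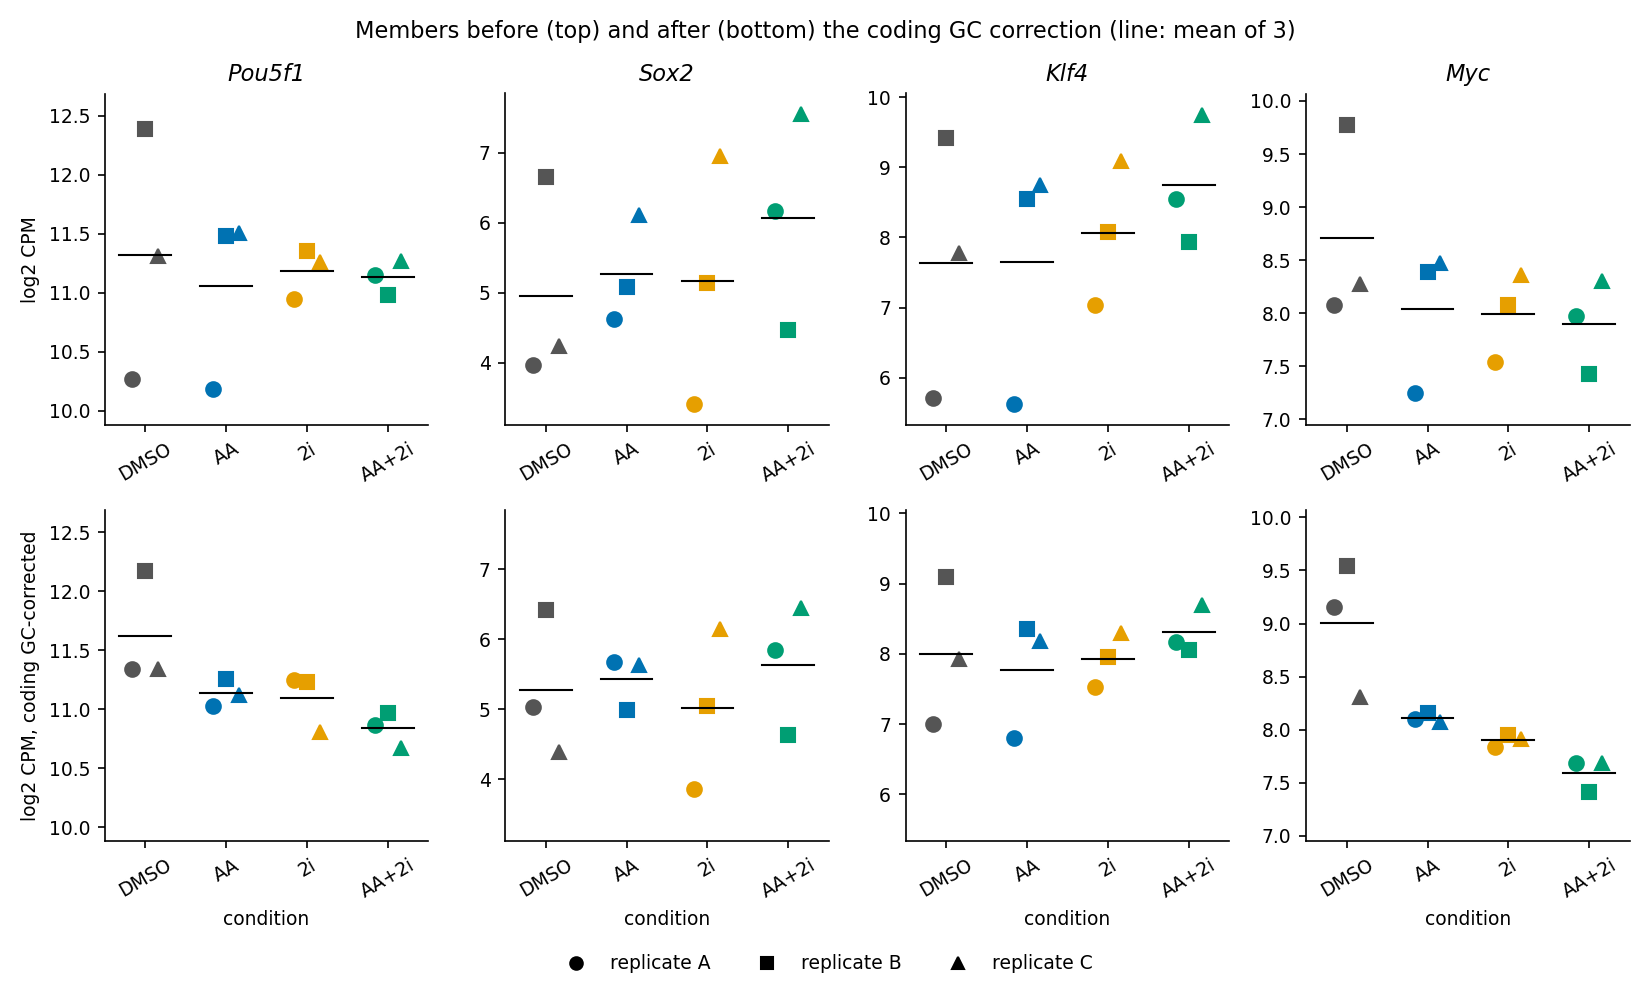
log2 CPM of each member by condition before (top) and after (bottom) the correction by coding GC, 1 point per library shaped by replicate letter, with a line at the mean of 3 and the same vertical range in both panels of a gene. After correction all 9 treated libraries of Myc and of Pou5f1 lie below the 3 DMSO libraries, whereas Sox2 and Klf4 still overlap.

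**Figure D4:**
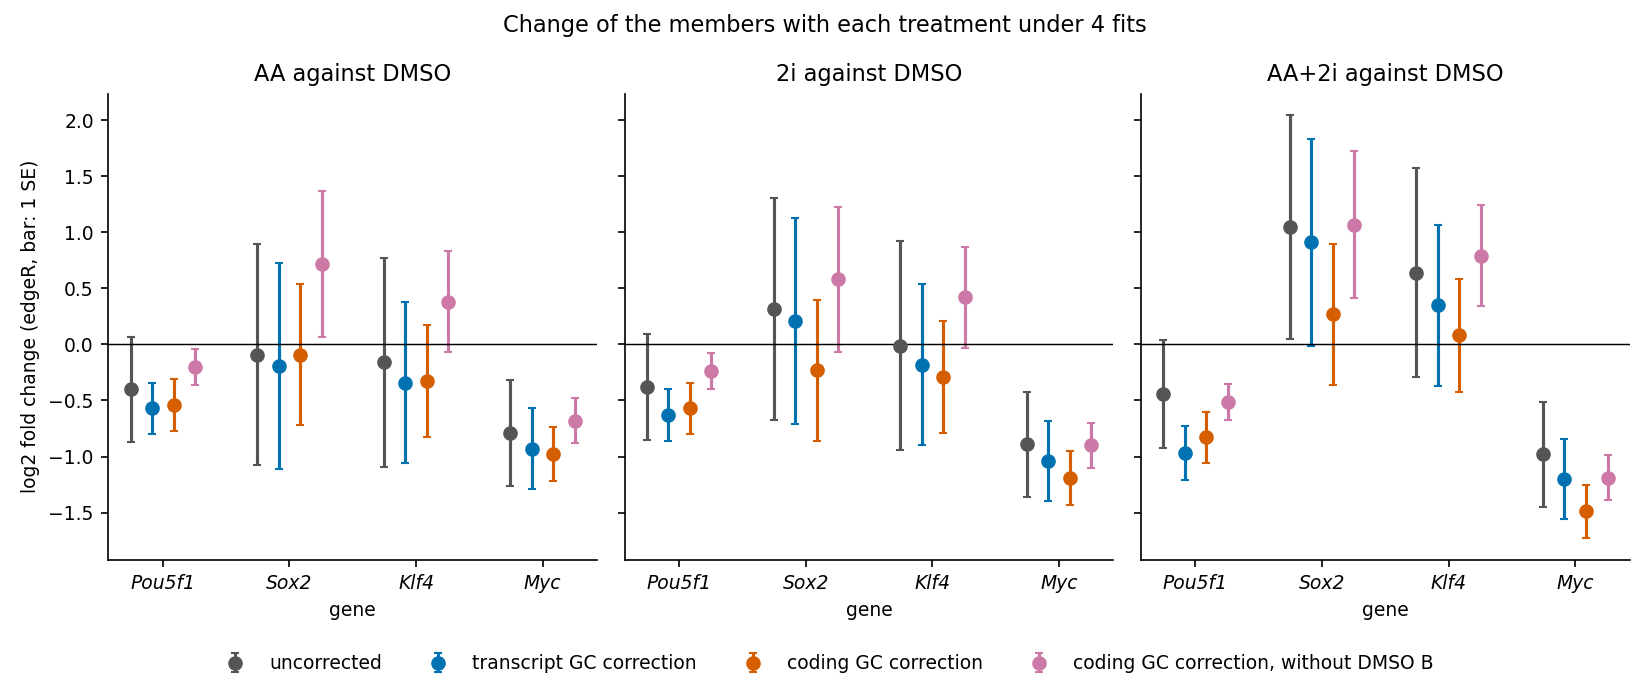
log2 fold change of each member against DMSO (vertical axis; bars are 1 SE) with AA, 2i and AA+2i in 4 edgeR fits: without correction, with transcript GC, with coding GC, and with coding GC without DMSO B. Myc and Pou5f1 are each below 0 in all 12 estimates shown, which share the DMSO libraries. Sox2 and Klf4 change side between fits with AA and with 2i.

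The balance between the members differed between libraries. Pou5f1 stood 6.628 times (AA+2i C) to 54.75 times (DMSO A) above Klf4 in TPM, and 24.51 to 347.8 times above Sox2. Its ratio to Myc was 8.274 to 14.86 (DMSO), 13.82 to 15.53 (AA), 13.55 to 19.26 (2i) and 14.2 to 21.34 (AA+2i). The ratio of Myc to Klf4 was 1.632 to 6.617 with DMSO and 0.4668 to 0.8951 with AA+2i, without overlap. On TPM Myc alone did not overlap in that comparison either, like 32.1% of all tested genes. How many gene pairs have ratios without overlap was not counted. These ratios were not corrected for GC content, while Klf4 followed the GC curve of the libraries with r of 0.972 and Myc with 0.459.

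Over the 12 libraries the levels of Sox2 and Klf4 on log2 TPM correlated with r of 0.798 and rho of 0.916 (permutation p = 0.00158 and 0.00011, adjusted over 6 pairs 0.00476 and 0.00066). The correlation was 0.693 without DMSO B and AA+2i C, the farthest from the median, 0.791 within conditions and 0.767 within letters. It was 0.799 (permutation p = 0.0016, adjusted 0.0096) after correction by transcript GC but 0.49 (permutation p = 0.106, adjusted 0.318) after correction by coding GC.

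Pou5f1 and Myc had r of 0.859 and rho of 0.769 (permutation p = 0.00214 and 0.00458, adjusted 0.00476 and 0.0137) before correction and 0.616 without DMSO B. After correction by coding GC r was 0.841 and rho 0.818 (permutation p = 0.00045 and 0.00186, adjusted 0.0027 and 0.0112). This r was 0.635 without DMSO B and AA+2i C and 0.55 within conditions, against 0.908 within conditions before correction. At 58.1% and 58.0% coding GC, nearly the same curve was subtracted from both genes. That alone can make the corrected values move together, and the permutation does not allow for it. After correction by transcript GC r was 0.645 (permutation p = 0.0345, adjusted 0.104). It was 0.23 without DMSO B and AA+2i C, so the relation there rests on them. Pou5f1 and Klf4 had r of 0.774 (permutation p = 0.00238, adjusted 0.00476) before correction and 0.196 (permutation p = 0.527, adjusted 0.804) after correction by coding GC. With coding GC r was −0.493 without DMSO B and −0.309 without DMSO B and AA+2i C, so its sign turned with 1 library. The rho with coding GC was −0.161 over all 12 libraries (permutation p = 0.62). After correction by transcript GC r was negative both with DMSO B (−0.238) and without it (−0.813).

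The genes whose TPM was most like that of a member over the 12 libraries, out of 11748 compared, were Mmp17, Erbb2, BC006779, Celsr2 and Trappc9 for Pou5f1 (r from 0.961 to 0.973), Egfl8, Gltscr1, Ankrd39, Adat3 and Hexim1 for Sox2 (0.926 to 0.944), Gramd1a, Gigyf1, Mfsd3, Adamts10 and Cchcr1 for Klf4 (0.991 to 0.994) and Arsa, Papln, Ypel4, Plekha4 and Dnm1 for Myc (0.941 to 0.951). Their coding GC content was 54.4% to 65.6%, against a median of 52.8% over the genes compared, so all 20 lay above that median. The best match of Klf4, Gramd1a, has 58.6% coding GC. By Spearman's rho Gramd1a and Mfsd3 also stood at place 1 for Klf4. Mmp17 was only at place 286 and Celsr2 at 93 for Pou5f1, Hexim1 at 427 for Sox2 and Papln at 108 for Myc. DMSO B was at 32.2 TPM in Erbb2 and 4.51 in Papln, against means of 8.25 and 0.575 over DMSO A and C.

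Of 65 genes of the POU, SOX, KLF and MYC families, the members among them, 43 were tested, and their median log2 fold change was 0.04 with 2i and 0.02 with AA+2i, against −0.02 over all genes in both. The corrected medians were −0.27 and −0.3 with coding GC and −0.25 and −0.3 with transcript GC, against −0.02 and −0.01 over all genes with coding GC. With AA 0 were called in edgeR (2 at an unadjusted p under 0.05, 1 called in DESeq2), with 2i 1 rose and 2 fell, and with AA+2i 2 rose and 3 fell, where 4.42% and 8.34% of all tested genes were called. Without DMSO B, 0 rose and 1 fell with 2i, and 1 rose and 3 fell with AA+2i, where 348 and 761 genes were called in all. After correction by coding GC, 3 rose and 6 fell with 2i, and 3 rose and 7 fell with AA+2i. In these corrected fits 1243 and 2163 of the 13400 tested genes were called. Mycn, the embryonic relative of Myc, was at 30.4 ± 0.342 TPM in DMSO and 26.8 ± 5.7 in AA but at 9.61 ± 1.93 in 2i and 8.81 ± 2.89 in AA+2i (SD, n = 3). It fell by 1.47 ± 0.32 (SE) with 2i (edgeR, adjusted p 0.029) and by 1.54 ± 0.33 with AA+2i (adjusted p 0.0144). The Myc antagonists Mxd1 (with 2i, −0.96, adjusted p 0.0109) and Mxi1 (with AA+2i, −1.0, adjusted p 0.0217) fell as well in edgeR. Klf2, a naive pluripotency factor close to Klf4, rose by 3.37 ± 0.61 with AA+2i (adjusted p 0.00671), from 6.59 ± 0.696 to 56.5 ± 34 TPM. With AA+2i Klf3 fell by 0.68 and Klf8, named after its value was seen, rose by 1.27, and Sox6 rose by 1.93 with 2i. The calls of Mycn with 2i (adjusted p 0.0559), Sox6 with 2i (0.103) and Klf8 (0.0795) were lost in edgeR without DMSO B.

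Of 12 known targets of Oct4 and Sox2, 4 rose and 0 fell with AA, 0 rose and 2 fell with 2i, and 7 rose and 1 fell with AA+2i, with medians of 1.59, −0.28 and 2.74 against −0.01, −0.02 and −0.02 over all genes, of which 1.34%, 4.42% and 8.34% were called. Without DMSO B, 2 rose with AA, 2 fell with 2i, and 5 rose and 1 fell with AA+2i, where 56, 348 and 761 genes were called in all. After correction by coding GC 4 rose with AA, 1 rose and 1 fell with 2i, and 7 rose and 0 fell with AA+2i. In these corrected fits 392, 1243 and 2163 of the 13400 tested genes were called. Dppa5a rose by 4.76 ± 0.39 and Zfp42 by 2.77 ± 0.37 with AA (edgeR, adjusted p 0.00064 and 0.00533), followed by Nanog (2.02, adjusted p 0.0168) and Tdgf1 (1.53, adjusted p 0.018). Without DMSO B, Nanog (adjusted p 0.0671) and Tdgf1 (0.0559) missed the threshold with AA. With 2i, Tdgf1 fell by 1.97 and Fgf4 by 1.16 (adjusted p 0.00257 and 0.00299). With AA+2i, Dppa5a rose by 3.86, Nanog by 3.23, Spp1 by 2.25 and Esrrb by 3.70 (adjusted p 0.000281, 0.000499, 0.00113 and 0.00211), and Fgf4 was the target that fell (−0.79, adjusted p 0.0141). After correction by coding GC Fgf4 was called neither with 2i (adjusted p 0.111) nor with AA+2i (0.0821). Pou5f1 and Sox2 themselves were called higher in none of these comparisons under any setting tried.

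Of 13 tested regulators of Pou5f1, 0 were called with AA in edgeR (3 at an unadjusted p under 0.05, 1 called in DESeq2), 1 fell with 2i and 1 rose and 1 fell with AA+2i, where 1.34%, 4.42% and 8.34% of all genes were called. Foxd3 fell by 3.24 ± 0.63 with 2i (edgeR, adjusted p 0.0153), the orphan receptor gene Esrrb rose as given above, and Nr2f2, known as a repressor of Pou5f1, fell by 1.55 ± 0.41 with AA+2i (adjusted p 0.0418). Without DMSO B neither Foxd3 (adjusted p 0.057) nor Nr2f2 (0.0659) was called, and after correction by coding GC Nr2f2 was not (0.0785). Corrected by coding GC, the list had 1 rise with AA (Foxd3, 1.87), 1 rise (Tcf7l1) and 1 fall (Foxd3) with 2i, and 2 rises with AA+2i (Esrrb and Tcf7l1). Of the 13400 tested genes 392, 1243 and 2163 were called in these corrected fits. Without correction 1263, 2151 and 3325 of the 13400 tested genes had an unadjusted p under 0.05 in edgeR against DMSO with AA, 2i and AA+2i. Of 24 Myc targets, which serve ribosome production, nucleotide and polyamine synthesis and the cell cycle, 0 were called in edgeR against DMSO with AA, 2i or AA+2i (2, 3 and 1 at an unadjusted p under 0.05, and 1, 0 and 1 called in DESeq2). Without DMSO B 1 fell with AA+2i (Odc1, −1.05, edgeR adjusted p 0.02). Their medians were −0.08, 0.27 and −0.04. After correction by coding GC 1 rose with 2i (Srm, spermidine synthase, 0.92, edgeR adjusted p 0.0292) and 1 fell with AA+2i (Odc1, ornithine decarboxylase, −0.53, adjusted p 0.0445). There 1243 and 2163 of the 13400 tested genes were called, and Myc itself was called lower in both. Of 17 tested genes that silence retroviruses, such as Trim28 and Setdb1, 0 were called in edgeR or DESeq2 in the same comparisons (2, 0 and 0 at an unadjusted p under 0.05 in edgeR), with medians of 0.12, −0.08 and −0.08.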

How the data were processed

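RNA-seq was measured in 12 libraries of pre-iPSCs, 4 conditions with 3 replicates each, grouped by the titles of the samples. The authors trimmed single-end reads, aligned them with Bowtie to mouse mm9 transcripts and quantified them with RSEM 1.2.4. The files deposited by the authors hold, per gene, expected counts (not normalised, and shared out between ambiguous transcripts), TPM (scaled to transcript length and library) and FPKM, which was not used here. Per the methods of the study, RSEM counted reads from both strands alike. One malformed TPM cell outside the members (AA C, 0610011F06Rik) was recomputed as 40.57.

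After rounding, expected counts went into the quasi-likelihood test of edgeR 4.0.16 (R 4.3.3), with relative log expression factors, 10 counts in at least 3 libraries, 1 model over the 4 conditions and Benjamini-Hochberg adjustment over 13400 genes. Library totals were 16173322 to 54392719. The study itself compared the conditions with EB-Seq, which was not used here. The GC correction subtracted, per library, a loess curve (span 0.4) of log2 CPM (prior count 2) on transcript GC (13303 genes) or coding GC (13298 genes). Alternatives included TMM factors, DESeq2 1.42.0, limma 3.58.1 on log2(TPM + 1) and log2(TPM + 0.1), other filters, the replicate block and libraries left out. The main fit, the replicate block and the correction by transcript GC were run on simulated counts with known changes. The correction by coding GC was not simulated. The simulation put in the curve that the fit then took out, so it cannot show whether a correction is right for these libraries. Correlations used 100000 permutations (scipy 1.17.1), two-sided. Figures were drawn with matplotlib 3.10.9.

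Genes were named by rule: the members, up to 4 called genes per list and comparison in order of adjusted p, defining markers at 0, and the 5 genes with a mean TPM of at least 1 most correlated with each member. The members, lists and alternatives were chosen with earlier results of these data known. P-values measure the spread between libraries, since no label says how the replicates were grown apart. Sequences and coordinates come from the mm9 reference annotation, matched by symbol.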

Additional observations from a re-analysis of the deposited data

How the results depend on the processing

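Without correction, leaving out one replicate letter or DMSO B gave, for AA against DMSO, −0.72 to 0.30 in Pou5f1, −1.01 to 1.46 in Sox2, −0.79 to 1.07 in Klf4 and −1.23 to −0.05 in Myc. For 2i it gave −0.65 to 0.32, −1.35 to 1.98, −0.87 to 1.32 and −1.32 to −0.15, for AA+2i −0.82 to 0.33, −0.31 to 2.93, −0.23 to 2.19 and −1.43 to −0.03, in the same order of genes. AA+2i against AA ranged over −0.38 to 0.22, 0.70 to 1.47, 0.45 to 1.37 and −0.51 to 0.16, AA+2i against 2i over −0.17 to 0.10, 0.40 to 1.05, 0.45 to 0.87 and −0.29 to 0.14, and the interaction over −0.36 to 0.63, −0.59 to 2.06, −0.42 to 1.43 and −0.04 to 1.13. None of these was called. Where a left-out letter reduces a group, the spread is pooled over all groups.

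The replicate letters mark no stated pairing. Deviations of same-letter libraries correlated at 0.401 on average, from −0.588 to 0.894 over 18 pairs, and 11 of 12 libraries were closest to their own letter. With the replicate block alone no member was called, Sox2 with 2i was at −0.18, Klf4 with 2i at 0.22 and Pou5f1 in AA+2i against AA at 0.12. The replicate block with transcript GC gave −0.54, −0.63 and −0.95 in Pou5f1 with AA, 2i and AA+2i and −1.11 in Myc with AA+2i, all called, and −0.27 in Sox2 with 2i. With coding GC it gave −0.95, −1.16 and −1.44 in Myc and −0.80 in Pou5f1 with AA+2i, all called, and −0.43 in Sox2 with 2i.

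The calls that appeared under correction alone were −0.97 in Pou5f1 and −1.20 in Myc with AA+2i (transcript GC, planned), and −0.83 in Pou5f1 and −1.49 in Myc with AA+2i and −1.19 in Myc with 2i (coding GC, chosen after the data were seen). Without DMSO B, also chosen after the data were seen, the calls were −0.72 in Pou5f1 (transcript GC), and −0.90 and −1.19 in Myc with 2i and AA+2i (coding GC). Signs turned as follows. Sox2 with AA was at 0.27 and 0.29 in limma (pseudocounts 1 and 0.1), 1.2 and 0.72 without DMSO B (transcript and coding GC), and with 2i at −0.23 under coding GC. Klf4 was at 0.74 and 0.38 with AA and 0.90 and 0.42 with 2i without DMSO B, and at 0.24 and 0.25 with 2i in limma. The interaction without DMSO B was −0.01, −0.50 and −0.21 (transcript GC) and −0.06, −0.22 and −0.02 (coding GC) in Pou5f1, Sox2 and Klf4. The cause was not tested.

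The number of genes called moved by more than 1.5 times in each comparison. For AA, 2i and AA+2i against DMSO it was 179, 592 and 1117 in edgeR, 454, 1099 and 1879 in DESeq2, 94, 366 and 729 with 10 counts in every library, 0, 187 and 581 with the compared groups alone, 594, 1782 and 4229 with the replicate block, 547, 1621 and 2634 with transcript GC, 392, 1243 and 2163 with coding GC and 0, 11 and 18 without letter B. For AA+2i against AA and 2i it was 817 and 122, 1980 and 610 with transcript GC, and 7 and 0 without letter B, and for the interaction 2, with 26 in DESeq2 and 13 in limma. The counts used here do not separate transgene from endogenous transcripts.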
